A study of Mus musculus with 11 samples.

Results

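The PARP genes linked to interferon, with the gene of their partner Dtx3l, were described here in cultured mouse macrophages that had or had not been exposed to the protein CYR61. The 9 member genes were taken by symbol from a table of 55487 gene IDs. They are Parp9, Dtx3l, Parp14, Parp10, Parp12, Parp11 and Parp8, which make 7 genes named for their link to interferon, and Parp1 and Parp2, which serve as PARP genes without that link. Their Ensembl IDs, in the same order, are ENSMUSG00000022906, ENSMUSG00000049502, ENSMUSG00000034422, ENSMUSG00000063268, ENSMUSG00000038507, ENSMUSG00000037997, ENSMUSG00000021725, ENSMUSG00000026496, ENSMUSG00000036023. All 9 passed the filter on low counts, and their lowest count in any library was 306, for Parp11. Marrow of C57BL/6J mice 2 to 5 months old was grown into macrophages in CMG-conditioned medium. CYR61 (CCN1) is an integrin-binding protein that cells release into the extracellular matrix. Of the 11 libraries, 4 came from macrophages given 0.5 µg/ml CYR61 for 24 h and 7 from control macrophages given 0 µg/ml for the same time. The same strain and medium served for both groups, with no other allele or agent named. Separate mice or cultures are not stated for the libraries, nor is a vehicle for the controls, so the p-values rest on variation between libraries that could be technical.

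PARP proteins use NAD to attach ADP-ribose to other proteins or to nucleic acids. Parp1 and Parp2 build chains of ADP-ribose at DNA breaks and recruit repair factors there, whereas most of the other family members attach single ADP-ribose units or carry domains that read them. Interferons act through transcription factors of the STAT and IRF families, and several PARP genes are known targets of interferon, among them Parp9, Parp10, Parp12 and Parp14. The products of Parp9 and Dtx3l, an ADP-ribosyltransferase family member and an E3 ubiquitin ligase, work as a complex.

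Expression was measured by RNA sequencing of total RNA from which ribosomal RNA had been removed. Libraries held 17390272 to 20760322 estimated counts with CYR61 and 14912123 to 21047654 in controls. Macrophage markers summed to 25294 to 27614 CPM (counts scaled to library size) with CYR61 and to 22865 to 24216 CPM in controls, and 7 of the 10 passed as higher with CYR61. Markers of T cells, B cells, natural killer cells, mast cells, erythroid cells, fibroblasts and conventional dendritic cells summed to at most 2.24 CPM in any library, with Cd3e, Cd3g, Pax5, Ncr1, Nkg7, Gzma and Fcer1a among those at 0 in all. The neutrophil list summed to 37.8 to 46.2 CPM with CYR61 and to 40.0 to 46.5 CPM in controls, almost all of it Mmp8, and Ly6g stood at 0. Of this list S100a8 passed as higher, at 1.69 CPM with CYR61 and 0.970 CPM in controls (edgeR, adjusted p = 0.0213). The 6 plasmacytoid dendritic cell markers summed to 330.1 to 345 CPM with CYR61 and to 291 to 322 CPM in controls. Of these Bst2, itself interferon-stimulated, passed as higher, and the defining marker Siglech had at most 7 counts. The 6 osteoclast markers summed to 82.0 to 87.6 CPM with CYR61 and to 84.8 to 95.5 CPM in controls, with 1 higher and 1 lower. Lists that stood lower with CYR61 were those of cycling cells (955 to 1073 CPM with CYR61, 1207 to 1278 CPM in controls, 5 of 6 passing as lower) and of endothelial cells (117 to 137 CPM with CYR61, 144 to 157 CPM in controls), the second almost all Vwf. Mitochondrial and ribosomal RNA genes took at most 3.80% of counts with CYR61, in replicate 4, and at most 2.19% in controls. CYR61 replicate 4 also stood apart in its counts: chi-square per gene was 19.2 to 33.4 between it and the other CYR61 libraries, 3.48 to 9.07 among those, and 2.90 to 10.6 among controls. Without it Dtx3l, Parp14, Parp12, Parp9 and Parp10 were still called higher, as with it. The part of these differences in the results below was not tested. In bulk RNA, fewer cells of a type and less RNA per cell cannot be told apart.

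Levels of different genes were set side by side as CPM per kb of exon, with exon lengths from GENCODE M21, which may differ from the annotation the authors used. On this scale Parp14, which encodes a large ADP-ribosyltransferase with macrodomains, stood highest at 43.6 ± 1.90 with CYR61 and 36.8 ± 2.11 in controls (SD, n = 4 and n = 7). Parp12 (28.8 ± 2.06 with CYR61, 24.3 ± 1.13 in controls), Parp1 (25.3 ± 0.632 and 24.2 ± 1.48) and Dtx3l (28.7 ± 0.584 and 24.1 ± 1.02) followed, and the control libraries of these neighbours in the order overlapped. Parp9 (15.0 ± 0.306 with CYR61, 13.4 ± 0.522 in controls), Parp10 (11.7 ± 1.19 and 10.2 ± 0.632) and Parp2 (7.06 ± 0.485 and 7.10 ± 0.368) came next, each clear of its neighbours in the control libraries. Parp8 (3.33 ± 0.165 with CYR61, 3.35 ± 0.151 in controls) and Parp11 (3.56 ± 0.268 and 3.09 ± 0.217) were lowest and overlapped. The interferon-linked members thus spanned the whole range, with Parp1 and Parp2 inside it.

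**Figure D1:**
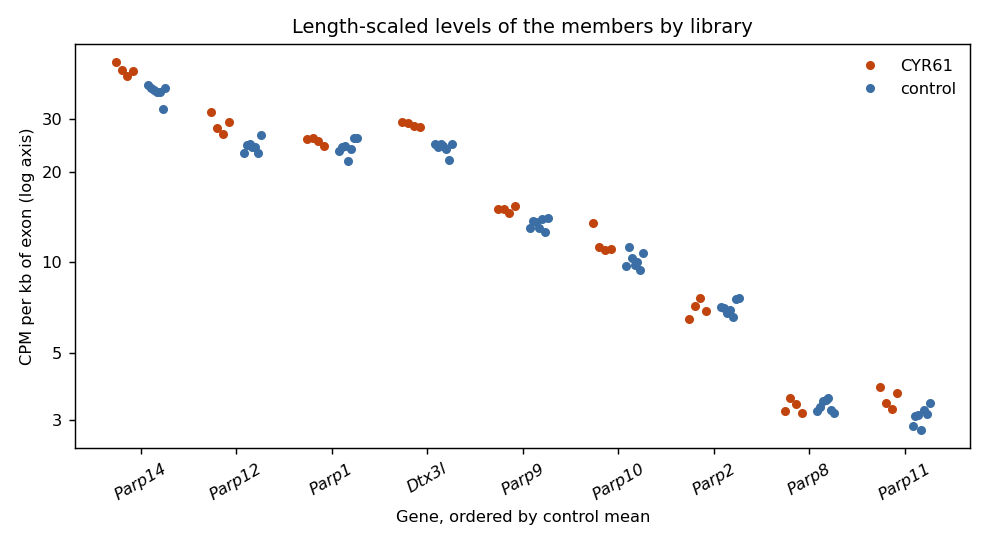
Length-scaled level of each member, in CPM per kb of exon on a log axis, with 1 point per library (4 CYR61, 7 control) and genes ordered by control mean. Parp14 stood above the other members in every library, and Parp8 and Parp11 lay lowest.

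The comparison asks how exposure to CYR61 changed these genes. Of the 9 members, 5 rose (Dtx3l, Parp14, Parp12, Parp9 and Parp10), 0 fell and 4 did not pass (edgeR quasi-likelihood test, Benjamini-Hochberg adjusted over 15135 genes, threshold 0.05). DESeq2 and limma-voom also gave 0 lower members, and no member was lower at an unadjusted p under 0.05. Across all genes tested 7.96% passed, 5.33% as higher and 2.63% as lower. The rises were small, from 11.9% for Parp9 to 19.2% for Dtx3l. In 4 members (Dtx3l, Parp14, Parp12 and Parp9) every CYR61 library stood above every control library, which was so for 4.65% of all genes tested, and 2.5% lay wholly below. The median log2 fold change was 0.20 over the 7 interferon-linked members and -0.01 over all genes tested. Of these 7 members Parp8 had the smallest change: its level was the same in both groups to within 1 SD.

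The complex of Dtx3l and Parp9 comes first. Dtx3l stood at 168, 166, 162 and 161 CPM in CYR61 replicates 1 to 4, against 125 to 142 CPM (median 140) in the 7 controls. All CYR61 libraries lay above all controls, and control replicate 6 was the lowest by a clear gap. Its log2 fold change was 0.25 ± 0.0343 (SE; edgeR, adjusted p = 0.000103). Parp9 was measured at 73.3, 73.3, 71.3 and 74.9 CPM with CYR61, against 61.7 to 68.4 CPM (median 66.2) in the 7 controls. The groups again did not overlap, and control replicate 6 was once more the lowest. The log2 fold change of Parp9 was 0.16 ± 0.0337 (SE; edgeR, adjusted p = 0.00489). The spread between CYR61 libraries was narrow for both genes, with a coefficient of variation of 2.04% for each, against 4.24% for Dtx3l and 3.89% for Parp9 in controls.

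In GENCODE M21 the starts of Parp9 and Dtx3l lie head to head on opposite strands of chromosome 16 and the genes overlap by 682 bases. Nothing in the labels states a strand-keeping library, so reads from the overlap cannot be told apart, and the deposited counts of both genes were not whole in any library. Parp14 is on the same chromosome. The window around the start of Dtx3l is shown because it also lies inside Parp9 and so belongs to the shared start of the pair. It is on chromosome 16 of GRCm38.p6 at chr16:35938978-35939277, minus strand, from the RefSeq promoter table, and runs from 250 bases before the start to 50 bases from it.
Dtx3l: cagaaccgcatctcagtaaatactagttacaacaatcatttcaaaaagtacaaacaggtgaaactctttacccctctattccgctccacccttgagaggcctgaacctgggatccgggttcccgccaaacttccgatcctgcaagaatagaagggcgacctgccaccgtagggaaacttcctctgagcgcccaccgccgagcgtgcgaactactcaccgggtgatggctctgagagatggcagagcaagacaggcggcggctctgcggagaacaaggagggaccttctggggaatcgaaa

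Within a library the ratio of Parp9 to Dtx3l counts needs no scaling factor. It was 0.438, 0.440, 0.440 and 0.466 with CYR61, against 0.448 to 0.500 in the 7 controls. Ratios of the CYR61 libraries lay mostly below those of controls, with overlap. The log2 ratio differed by -0.09 (exact permutation of 330 splits, two-sided p = 0.0333), which did not pass after adjustment over the 15 ratios computed (exact permutation, adjusted p = 0.0661); without control replicate 4 it did (adjusted p = 0.0476). A smaller rise of Parp9 than of Dtx3l was therefore not shown. In the 7 controls the log2 CPM of Parp9 and Dtx3l had a Pearson r of 0.52 (exact permutation p = 0.236, adjusted over 5 pairs 0.236) and a Spearman rho of 0.04 (exact permutation p = 0.963, adjusted 0.963). Without control replicates 1 and 6, the libraries farthest from the Parp9 median, r was -0.18, so the positive value was not kept. Control replicate 6 was the lowest for both genes. Control replicate 1 was low for Parp9 (63.5 CPM) but the highest control for Dtx3l (141.8 CPM). The part of each of these libraries alone was not tested.

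Parp14, known as a cofactor of Stat6 in B cells, also rose. It was measured at 429, 405, 386 and 402 CPM with CYR61, against 300.5 to 361 CPM (median 346) in the 7 controls. No CYR61 library fell among the controls, and control replicate 6 stood apart at the low end, as for Dtx3l. The log2 fold change was 0.25 ± 0.0427 (SE; edgeR, adjusted p = 0.00104). Gm49730, a gene model of unproven status, overlaps Parp14 on the same strand in GENCODE M21 and held 72 to 104 counts per library, beside 5494 to 8220 for Parp14.

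Parp12 encodes an ADP-ribosyltransferase with zinc fingers that restrains the replication of several RNA viruses. Its level was 126, 112, 106.2 and 117 CPM with CYR61, against 92.0 to 105.6 CPM (median 96.9) in the 7 controls. The lowest CYR61 library, replicate 3, was just above the highest control, replicate 7, so the groups barely separated. Its log2 fold change was 0.24 ± 0.0436 (SE; edgeR, adjusted p = 0.00132).

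Parp10, a mono-ADP-ribosyltransferase first described as a partner of Myc, stood at 57.7, 48.1, 47.1 and 47.4 CPM with CYR61, against 40.2 to 48.1 CPM (median 43.0) in the 7 controls. CYR61 replicate 1 was well above the rest, replicate 2 only just cleared the highest control, and replicates 3 and 4 lay between the highest control and the next. Parp10 passed narrowly, with a log2 fold change of 0.20 ± 0.0573 (SE; edgeR, adjusted p = 0.0405). Without CYR61 replicate 1 it became 0.13 (edgeR, adjusted p = 0.138), and the call was lost under 14 of 23 alternatives, which included leaving out CYR61 replicate 2 or control replicate 1, 3, 4, 5 or 6. Parp10 also overlaps the strongly expressed gene Plec by 1401 bases on the same strand in GENCODE M21 (34257 to 47788 counts per library for Plec), and its counts were whole in only 1 library.

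Parp11, a mono-ADP-ribosyltransferase found at the nuclear envelope, was measured at 27.1, 24.0, 22.9 and 26.0 CPM with CYR61, against 19.5 to 24.1 CPM (median 21.9) in the 7 controls. CYR61 replicates 1 and 4 lay above all controls, replicate 2 just under the highest control, and replicate 3 only a little above the next. Parp11 missed the threshold with a log2 fold change of 0.20 ± 0.0609 (SE; edgeR, adjusted p = 0.0544), the same size as that of Parp10. It passed under 6 of 23 alternatives, DESeq2 among them (Parp11 adjusted p = 0.0401), and when CYR61 replicate 3 (edgeR, adjusted p = 0.0383) or control replicate 7 (edgeR, adjusted p = 0.0240) was left out. Without CYR61 replicates 1 and 4 together its log2 fold change was 0.11 (edgeR, adjusted p = 0.466).

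Promoter windows of 300 bases in the RefSeq table (GRCm38.p6) were found for 6 of the 9 members, with 7 windows in all because Parp11 has 2. Parp9, Parp10 and Parp14 were not matched. Both strands were searched for the core of the interferon-stimulated response element, GAAANNGAAA, and for the gamma-activated sequence, TTCNNNGAA, which reads the same on both strands. The first was found in 1 of the 7 windows and in 3.44% of the 32851 windows of the table, and the second in 1 of the 7 and in 8.30% of the table. Both matches lay in the same Parp11 window. The response element core was on the minus strand from -44 to -35 of the start and overlapped the gamma-activated sequence, from -37 to -29. That window is at chr6:127446590-127446889, plus strand, and is printed with both matches in capitals, beside the windows of Parp12 (chr6:39118300-39118599, minus strand), which rose and held neither motif, and Parp1 (chr1:180568641-180568940, plus strand), which was not linked to interferon.
Parp11: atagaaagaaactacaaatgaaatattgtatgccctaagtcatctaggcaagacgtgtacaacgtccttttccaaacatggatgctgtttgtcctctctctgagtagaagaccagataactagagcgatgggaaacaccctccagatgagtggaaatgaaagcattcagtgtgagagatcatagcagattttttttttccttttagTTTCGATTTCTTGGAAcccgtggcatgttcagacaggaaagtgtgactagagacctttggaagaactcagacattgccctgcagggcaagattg
Parp12: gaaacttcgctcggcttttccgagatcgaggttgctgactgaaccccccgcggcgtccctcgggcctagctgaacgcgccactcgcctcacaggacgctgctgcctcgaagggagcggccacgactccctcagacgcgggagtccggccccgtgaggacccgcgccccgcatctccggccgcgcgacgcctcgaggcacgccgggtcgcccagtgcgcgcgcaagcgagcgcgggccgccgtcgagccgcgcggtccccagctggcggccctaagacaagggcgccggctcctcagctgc
Parp1: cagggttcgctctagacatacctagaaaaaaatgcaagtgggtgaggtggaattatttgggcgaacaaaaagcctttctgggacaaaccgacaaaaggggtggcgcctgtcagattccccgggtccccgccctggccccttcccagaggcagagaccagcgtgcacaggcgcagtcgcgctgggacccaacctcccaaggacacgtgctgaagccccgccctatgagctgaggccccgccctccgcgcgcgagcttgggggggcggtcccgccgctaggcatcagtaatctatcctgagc

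These letters are a description of the window, not of binding. The Dtx3l window printed above held neither motif.

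Parp8, a family member predicted to attach single ADP-ribose units, differed by less than the spread between replicates. It stood at 28.7, 31.5, 30.1 and 28.2 CPM with CYR61, against 28.2 to 31.4 CPM (median 29.5) in the 7 controls. The groups overlapped over almost their full range. The log2 fold change was -0.01, with a 95% interval of -0.11 to 0.09 (edgeR, adjusted p = 0.949).

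Parp1 and Parp2, the DNA break enzymes, did not pass. Parp1 was measured at 136, 137, 134 and 129 CPM with CYR61, against 115 to 137 CPM (median 128) in the 7 controls. Control replicates 6 and 7 were above every CYR61 library and control replicate 4 was the lowest of all. Its log2 fold change was 0.06, with a 95% interval of -0.03 to 0.15 (edgeR, adjusted p = 0.44). Parp2 stood at 23.5, 26.1, 27.7 and 25.1 CPM with CYR61, against 23.9 to 27.6 CPM (median 25.6) in the 7 controls. The groups covered nearly the same range, with a log2 fold change of -0.01 and a 95% interval of -0.12 to 0.10 (edgeR, adjusted p = 0.943). A miss of the threshold does not show equal levels, and the intervals allow changes of these sizes.

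**Figure D2:**
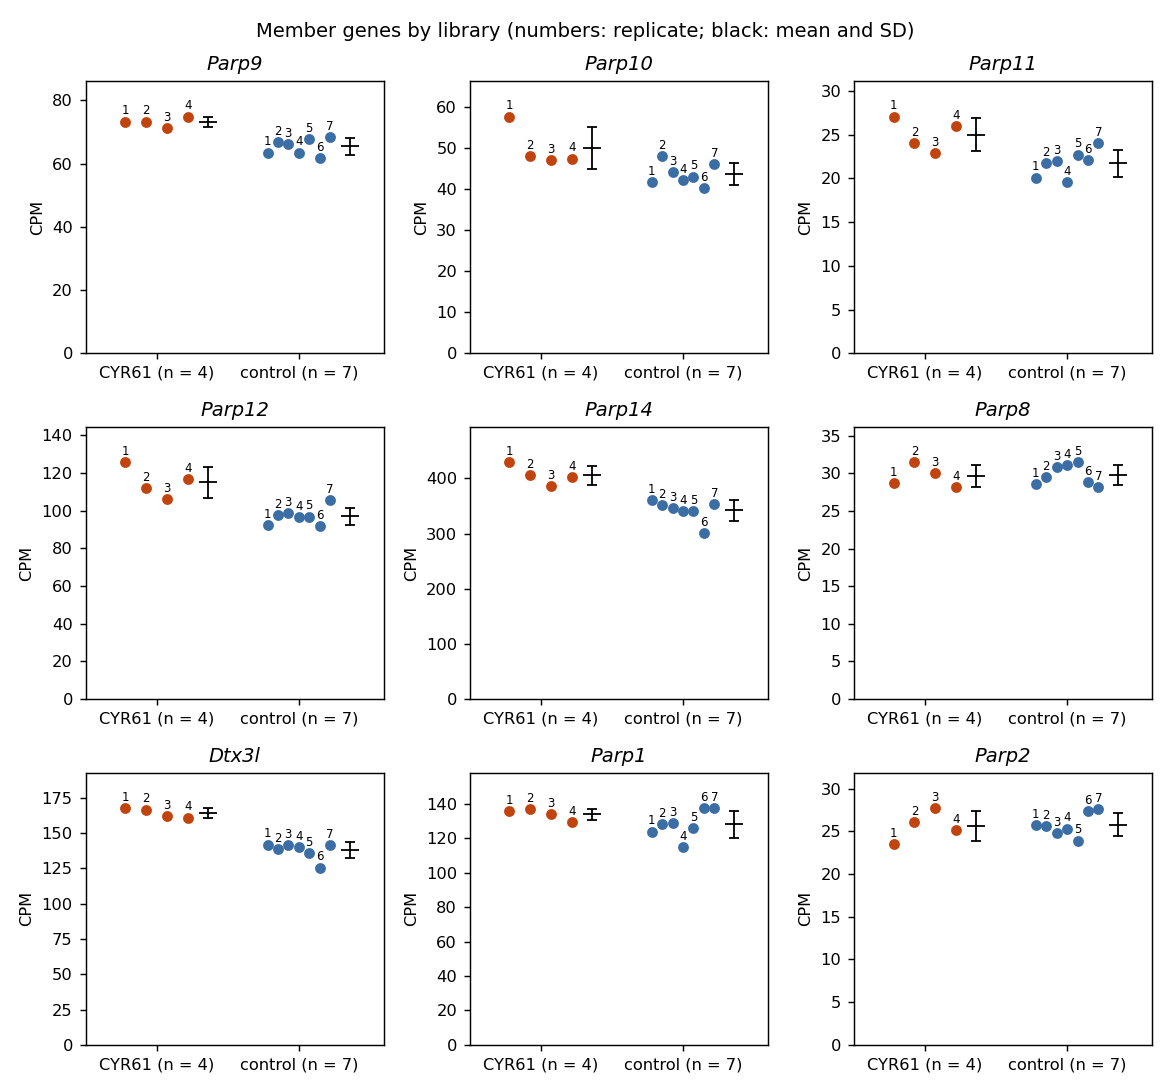
CPM of each member in every library, CYR61 (n = 4) left of control (n = 7), with replicate numbers at the points and the mean and SD in black beside each group. The groups separate for Parp9, Parp12, Parp14 and Dtx3l, overlap for Parp10 and Parp11, and coincide for Parp8 and Parp2.

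The authors' deposited table, which comes from a fit of their own, is set beside these values. In the authors' deposited table the log2 fold changes were 0.254 for Dtx3l, 0.236 for Parp14, 0.220 for Parp12, 0.171 for Parp11, 0.157 for Parp9 and 0.155 for Parp10. Adjusted p-values of these genes in the authors' deposited table ran from 0.000136 for Dtx3l to 0.0428 for Parp11. Those of Parp1, Parp2 and Parp8 in the authors' deposited table were 0.246, 0.817 and 0.975. The share of all genes passing in that table is not given here.

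Whether an interferon-linked member rose more than Parp1 or Parp2 was tested on ratios of counts within each library. Of the 15 ratios, 4 passed (two-sided exact permutation test, adjusted over the 15 ratios): those of Dtx3l, Parp14 and Parp12 over Parp2 and of Parp12 over Parp1, each with an adjusted p of 0.0455. The ratio of Dtx3l to Parp2 was 7.12, 6.38, 5.84 and 6.40 with CYR61, against 4.57 to 5.72 in the 7 controls. It was the only ratio of the 15 whose groups did not overlap, and its exact permutation p of 0.00303 is the smallest that 330 splits can give. The ratio of Dtx3l to Parp1 was 1.24, 1.22, 1.21 and 1.25 with CYR61, against 0.913 to 1.21 in the 7 controls. Control replicate 4 reached the CYR61 range and control replicate 6 lay lowest, and this ratio did not pass (exact permutation, adjusted p = 0.0606), though it did without control replicate 4 (adjusted p = 0.0476). Parp14 over Parp1 averaged 3.03 with CYR61 and 2.67 in controls (geometric means; exact permutation, adjusted p = 0.0661). The ratios of Parp8 over Parp1 (0.221 with CYR61, 0.233 in controls) and over Parp2 (1.16 in both) gave exact permutation p-values of 0.352 and 1. Each of the 4 that passed lost its call when CYR61 replicate 1, 2 or 4 (exact permutation, adjusted p = 0.0938 to 0.208) or control replicate 1, 2, 3, 6 or 7 (adjusted p = 0.0536 to 0.0857) was left out. Leaving out a library gives fewer than 330 splits and raises the smallest possible p. That smallest p is the same whichever CYR61 library is left out, but the 4 calls held without CYR61 replicate 3. The calls thus differed with the library left out, and the part of each library in the losses was not tested. The ratios of Parp12 to Parp1 and of Parp14 to Parp2 were also lost without control replicate 5 (exact permutation, adjusted p = 0.0536), while that of Parp11 to Parp1 was gained there (adjusted p = 0.0476). Without CYR61 replicate 3, 8 of the 15 ratios passed (exact permutation, adjusted p = 0.0312 each): the 4 above, Parp11 over Parp1, and Parp9, Parp10 and Parp11 over Parp2.

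**Figure D3:**
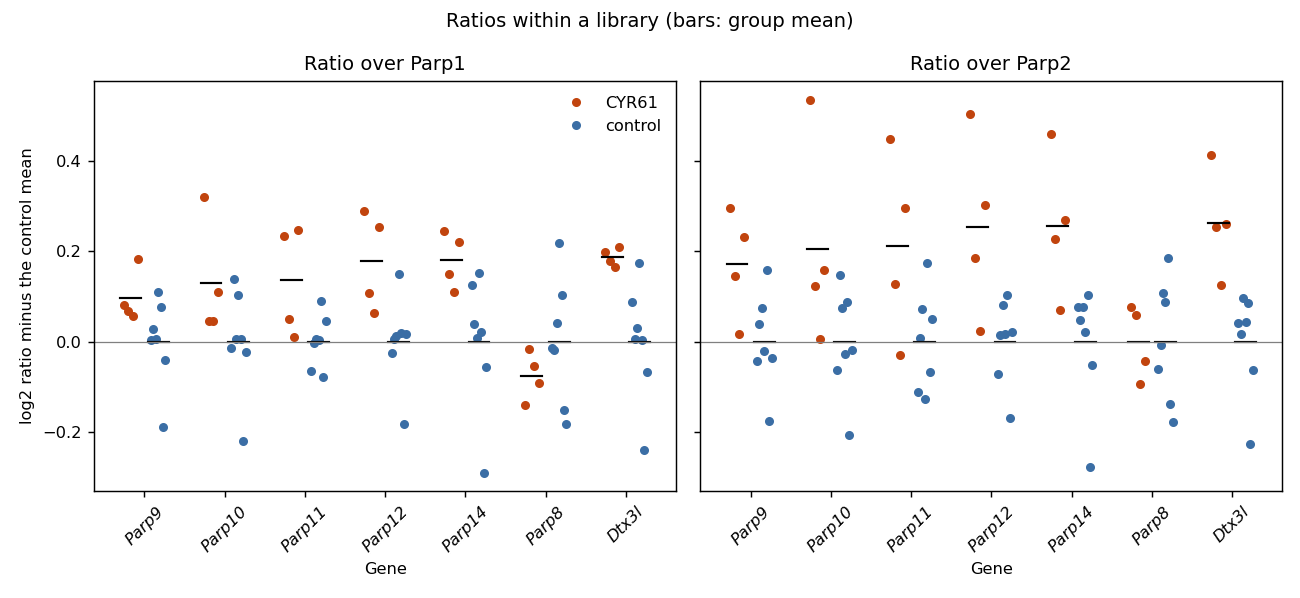
Log2 ratio of each interferon-linked member to Parp1 (left) and Parp2 (right) within a library, minus the control mean, with CYR61 points left of control points and bars at group means. Dtx3l, Parp12 and Parp14 lie highest above the control mean, and Parp8 lies at or below it.

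No further PARP gene passed as higher. Of 8 family genes outside the members, 0 passed as higher (edgeR, and 0 by DESeq2 and limma-voom; 1, Parp3, at an unadjusted p under 0.05) and 1 fell, with a median log2 fold change of 0.02. The gene that fell was Parp4, whose product belongs to the vault particle, at 89.1 ± 2.15 CPM with CYR61 and 98.6 ± 5.17 CPM in controls (log2 fold change -0.14, edgeR, adjusted p = 0.026), a call lost without CYR61 replicate 1, 3 or 4 or control replicate 2, 3 or 4. Zc3hav1, the zinc finger antiviral protein and an interferon-linked member of the family in its own right, was measured at 207 ± 4.61 CPM with CYR61 and 201 ± 6.91 CPM in controls (edgeR, adjusted p = 0.464). Tiparp, a target of the aryl hydrocarbon receptor, stood at 17.8 ± 0.817 and 16.6 ± 1.25 CPM, and Parp3, which acts at DNA breaks, at 35.2 ± 2.43 and 32.6 ± 1.78 CPM, neither passing (edgeR, adjusted p = 0.413 and 0.211). Of the Deltex family, the other ubiquitin ligases related to Dtx3l, 3 of 4 were tested, with 0 higher and 1 lower. Dtx4 fell to 60.0 ± 2.33 CPM with CYR61, against 67.5 ± 2.72 CPM in controls (log2 fold change -0.17, edgeR, adjusted p = 0.0064), and all CYR61 libraries lay below all controls. Dtx3 (52.4 ± 1.63 CPM with CYR61, 55.9 ± 1.99 CPM in controls) and Dtx2 (15.8 ± 1.66 and 15.7 ± 0.640 CPM) did not pass.

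**Figure D4:**
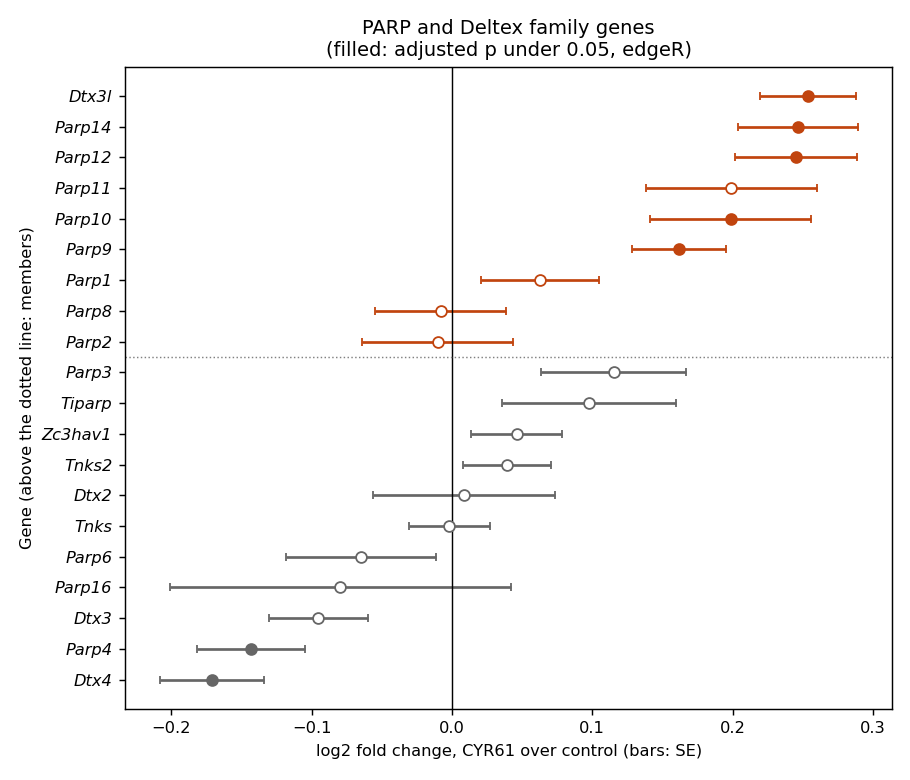
Log2 fold change of CYR61 over control with its SE for the 9 members (above the dotted line) and the 11 other PARP and Deltex genes tested, filled where the adjusted p was under 0.05. The filled points to the right of 0 are all members, and the filled points to the left are Parp4 and Dtx4.

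Genes that remove ADP-ribose or read it through a macrodomain gave no call: of 9 tested, 0 rose and 0 fell at the adjusted threshold (edgeR; DESeq2 and limma-voom called 0 as well), and none reached an unadjusted p under 0.05. The ADP-ribose hydrolase genes Adprh (46.2 ± 2.49 CPM with CYR61, 43.1 ± 3.04 CPM in controls) and Adprs (16.2 ± 0.654 and 17.1 ± 1.61 CPM) and the macrodomain histone gene Macroh2a1 (117 ± 6.12 and 112 ± 2.96 CPM) had, with Gdap2 (20.3 ± 1.04 and 19.5 ± 1.16 CPM), the lowest p-values among those of at least 1 CPM. Among 10 repair partners of Parp1 and Parp2, 0 rose and 0 fell (edgeR, and 0 by DESeq2 and limma-voom), and 1 had an unadjusted p under 0.05. Hpf1, the cofactor that directs Parp1 and Parp2 to serine, stood at 12.3 ± 1.01 CPM with CYR61 and 12.99 ± 0.886 CPM in controls (edgeR, adjusted p = 0.55). Aplf (7.87 ± 0.413 and 8.51 ± 0.908 CPM) and Aptx (10.5 ± 0.837 and 11.1 ± 0.780 CPM) did not pass either.

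NAD is the substrate of all PARP enzymes, and 3 of 11 tested genes of its supply and use rose while 0 fell. Bst1, a surface enzyme that cleaves NAD, rose 1.85-fold to 21.7 ± 1.98 CPM with CYR61, against 11.8 ± 0.705 CPM in controls (edgeR, adjusted p = 1.66e-07). Kmo, which acts in the route from tryptophan to NAD, rose 1.94-fold but stayed low, at 1.80 ± 0.124 CPM with CYR61 and 0.928 ± 0.206 CPM in controls (edgeR, adjusted p = 0.00343). Nampt, the rate-limiting enzyme of the NAD salvage pathway, rose to 176 ± 12.3 CPM with CYR61, against 158 ± 6.94 CPM in controls (edgeR, adjusted p = 0.0317). Naprt was measured at 9.72 ± 1.22 and 8.02 ± 0.985 CPM and did not pass (edgeR, adjusted p = 0.117). The count of 3 became 2 without CYR61 replicate 2, 3 or 4 or control replicate 3, 5 or 6. The related NAD-cleaving gene Cd38 had at most 5 counts in a library and was not tested.

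Genes of interferon receptors and signalling rose in part, and whether they act on the members here was not tested. Of 15 receptor and signalling genes, 6 rose and 0 fell, with 4 rising without CYR61 replicate 3 or 4 or control replicate 3 or 5. Stat2, a transcription factor of the type I interferon response, rose to 190 ± 18.9 CPM with CYR61, against 147 ± 13.1 CPM in controls (edgeR, adjusted p = 0.00134). Irf1 rose to 81.0 ± 2.57 CPM, against 68.2 ± 2.05 CPM in controls, and Irf7 to 150 ± 6.28 CPM, against 94.5 ± 17.2 CPM in controls (edgeR, adjusted p = 6.53e-05 and 0.000171). Of 31 other interferon-stimulated genes 27 rose and 0 fell, with a median log2 fold change of 0.36 and a range of 0.09 to 1.03. The interferon-linked members, at -0.01 to 0.25, lay in the lower part of that range or below it. Gbp2 rose to 21.1 ± 2.17 CPM with CYR61, against 10.3 ± 1.51 CPM in controls, Zbp1 to 41.7 ± 3.67 CPM, against 21.2 ± 3.02 CPM, Gbp3 to 14.9 ± 0.946 CPM, against 8.81 ± 1.01 CPM, and Ifit2 to 74.9 ± 7.57 CPM, against 50.8 ± 4.96 CPM. Their adjusted p-values ran up to 4.62e-05 (edgeR). Without CYR61 replicates 1 and 4 together, 14 of the 31 rose, and 3 of the 9 members.

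**Figure D5:**
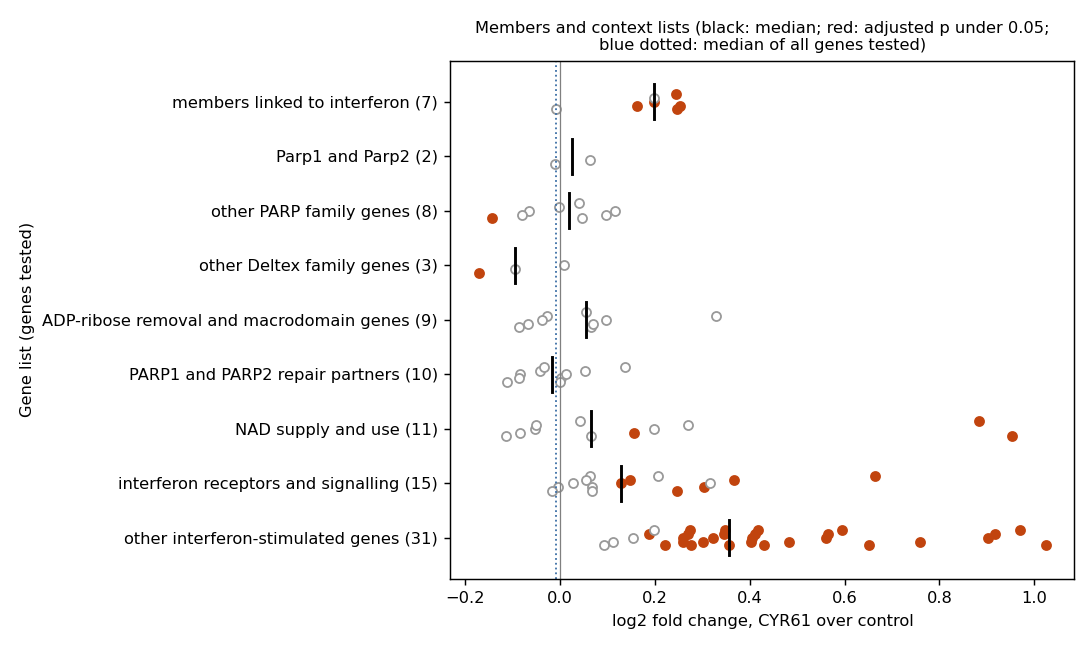
Log2 fold change of CYR61 over control for each tested gene of the members and 7 context lists, in red where the adjusted p was under 0.05, with list medians in black and the median of all genes tested as a dotted blue line. Red points fill the list of interferon-stimulated genes, and the list of PARP1 and PARP2 repair partners and that of ADP-ribose removal hold none.

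Likeness across libraries was measured as Pearson r of log2 CPM over the 7 control libraries, over the 8657 genes that averaged 10 CPM or more, as a description. The genes most like Parp14 were Tor1aip2 (r = 0.98), Ifih1 (r = 0.98), the cytosolic RNA sensor, and Tor1aip1 (r = 0.98). Dtx3l ranked 7 of 8657 for Parp14 (r = 0.95), and Parp14 ranked 4 for Dtx3l, behind Huwe1, Fxyd5 and Dym (r = 0.98, 0.97 and 0.97). The genes most like Parp9 were Gm21370, Oaz1 and Fis1 (r = 0.98, 0.97 and 0.97), whereas Dtx3l ranked 1034 for Parp9 (r = 0.52). For Parp1 they were Rnaseh1, Ube2h and AU040320 (r = 0.99, 0.99 and 0.97), and Dtx3l stood at r = -0.42. The genes named as most like a member were picked as the highest r of 8657 over only 7 libraries. Values near 1 can arise from that selection alone, and no p-value was computed for them. All these r values share the same 7 libraries and their depth, and include control replicate 6, the lowest for both Parp14 and Dtx3l. The part of that library in them was not tested.

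Correlations were tested over the 7 controls, with p-values adjusted over 5 pairs. Parp9 with Parp14 had r = 0.58 and rho = 0.25 (exact permutation p = 0.139 and 0.595, adjusted 0.188 and 0.744), with r = 0.54 without control replicates 1 and 6. Parp1 with Parp2 had r = 0.63 and rho = 0.50 (exact permutation p = 0.126 and 0.267, adjusted 0.188 and 0.589), with r = 0.73 without control replicates 4 and 6. No correlation was computed across treatments, since the groups differ.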

How the data were processed

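RNA of 4 CYR61 and 7 control macrophage libraries was sequenced after ribosomal RNA removal, per the labels' protocols. DRAGEN was used, per the submitters' processing notes; its role was not stated, and the sources name no build or annotation. Per gene, the authors deposited expected counts (estimated counts), not normalized, in a table of 55774 rows with 55487 gene IDs; repeated IDs held identical values and were dropped. A further table deposited by the authors holds log2 fold changes, log2 CPM, scores (moderated t, log odds, signed fold) and p-values. Groups came from the labels.

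After rounding, edgeR 4.0.16 in R 4.3.3 was run (filterByExpr, TMM, glmQLFit, glmQLFTest, two-sided) over all 11 libraries, with Benjamini-Hochberg adjustment over the 15135 genes tested and a threshold of 0.05. The common biological coefficient of variation was 5.64%. CPM are TMM-scaled, SDs are over libraries, and SEs follow from the quasi-likelihood F. Ratios used log2 counts with 0.5 added, log2 CPM for correlations a prior count of 2. Alternatives were DESeq2 1.42.0, limma-voom (limma 3.58.1) with and without quality weights, RLE or no factors, 2 other filters, omission of the genes of mitochondrial and ribosomal RNA, a block by replicate number, a minimum fold of 1.2, and leaving out libraries. The edgeR step was tested on simulated counts. Named genes were the members, per context list up to 4 genes of at least 1 CPM ranked by p, and the 3 genes most like Parp9, Dtx3l, Parp14 and Parp1; others (Cd38, the markers and overlapping genes) were chosen after their values were seen. Members and lists were chosen with earlier results of these data known. Within each group, every library pair differed beyond counting error (chi-square per gene of 2.90 to 33.4). Exon lengths and overlaps came from GENCODE M21, and sequences from RefSeq (GRCm38.p6). Results for some genes are not reported here.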

Additional observations from a re-analysis of the deposited data

Results flagged for a closer look

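The spread of each of the 9 members and 15 ratios was examined in both groups for a library whose gap to its nearest neighbour was large against the whole range, which chance gives in about 1 of 20 groups. Of the 48 groups examined, 5 held such a library.

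Parp10 stood at 57.7 CPM in CYR61 replicate 1, against 47.1 to 48.1 CPM in the other CYR61 libraries. In control replicate 6, Parp14 stood at 300.5 CPM, with the other controls at 341 to 361 CPM, and Dtx3l at 125 CPM, with the others at 136 to 142 CPM. The log2 ratio of Parp14 to Parp2 in the same library was 3.45, with the next lowest control at 3.68. The log2 ratio of Parp9 to Dtx3l was -1.10 in CYR61 replicate 4, with the other CYR61 libraries at -1.19 to -1.18. Without control replicate 6, Parp14 and Dtx3l still passed as higher, with log2 fold changes of 0.22 and 0.23 (edgeR, adjusted p = 0.000495 and 6.56e-05).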

How the results depend on the processing

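The rises of Dtx3l, Parp14 and Parp12 kept their direction and call under 22 of 23 alternatives and that of Parp9 under 21. Requiring a fold of at least 1.2 left 0 of the 9 members and 109 higher and 5 lower genes over the whole table, with log2 fold changes unchanged at 0.25 (Dtx3l), 0.25 (Parp14), 0.24 (Parp12), 0.20 (Parp10) and 0.16 (Parp9). No member could pass this setting, since the largest estimated fold, that of Dtx3l, was 1.19. It was the alternative under which Dtx3l, Parp14 and Parp12 lost their calls. Under this minimum fold 0 other PARP and 0 other Deltex genes were lower, and 1 gene of NAD supply, 1 of interferon signalling and 7 other interferon-stimulated genes were higher. Without CYR61 replicates 1 and 4 together, 3 members rose, Parp9 (0.14) and Parp10 (0.13) were lost, Parp11 stood at 0.11 (adjusted p = 0.466), Parp8 and Parp2 changed sign (0.0486 and 0.060), 14 other interferon-stimulated genes were higher, and 0 other PARP and 0 other Deltex genes were lower. TMM factors separated the groups, at 0.971 to 0.993 with CYR61 and 1.004 to 1.023 in controls. Scaling by library size alone lowered the log2 fold changes to 0.21 (Dtx3l), 0.20 (Parp14), 0.20 (Parp12) and 0.12 (Parp9). Each of these was still called higher (edgeR, adjusted p up to 0.0322, for Parp9). The same scaling gave 529 higher and 938 lower genes, 2 lower Deltex genes and Parp10 at 0.15, not passing. Parp10 was also lost under limma-voom (0.20, adjusted p = 0.0502) and with quality weights (0.15), where Parp2 changed sign (0.0232). Parp11 passed under DESeq2 (0.20) and with no low-count filter (0.20).

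Leaving out each library in turn gave 583 to 903 higher and 205 to 469 lower genes (205 without CYR61 replicate 2) and 4 to 6 members higher. Log2 fold changes ran from 0.13 to 0.23 for Parp10, 0.16 to 0.24 for Parp11, -0.0388 to 0.0161 for Parp8 and -0.0488 to 0.0288 for Parp2, the last pair changing sign without being called. Other PARP genes lower ranged from 0 to 1 and repair partners higher from 0 to 1, while genes higher ranged from 2 to 3 for NAD supply, 4 to 6 for interferon signalling and 23 to 27 for other interferon-stimulated genes. Log2 ratio differences ranged from 0.14 to 0.22 (Parp12 over Parp1), 0.17 to 0.33 (Parp12 over Parp2), 0.19 to 0.32 (Parp14 over Parp2), 0.21 to 0.31 (Dtx3l over Parp2), 0.10 to 0.18 (Parp11 over Parp1), 0.15 to 0.22 (Dtx3l over Parp1), 0.13 to 0.22 (Parp9 over Parp2), 0.10 to 0.27 (Parp10 over Parp2), 0.13 to 0.29 (Parp11 over Parp2), -0.11 to -0.0793 (Parp9 over Dtx3l) and -0.0291 to 0.0314 (Parp8 over Parp2). In controls without the 2 farthest libraries, r was -0.18 for Parp9 with Dtx3l. The cause of each lost call was not tested.

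Replicate numbers 1 to 4 stand in both groups. Same-numbered libraries did not deviate together (r = -0.03 to 0.03). CYR61 replicates 1 to 3 correlated best with a control of another number, and CYR61 replicate 4 with control replicate 4 (r = 0.03). Whether same-numbered libraries shared a mouse, culture or preparation is not stated and was not tested. With the replicate block over these 8 libraries, 811 genes were higher and 450 lower, 5 members rose, Parp10 stood at 0.18 (adjusted p = 0.124), Parp11 at 0.26 (adjusted p = 0.0487) and Parp2 at 0.0130. In the same libraries without the block Parp10 stood at 0.18 (adjusted p = 0.101), Parp11 at 0.26 (adjusted p = 0.0224) and Parp2 at 0.0133. The lowest member count in a library was 306, and what limits the precision was not tested.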
